A study of Mus musculus with 4 samples.

Results

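The calcium, calcineurin and NFAT genes described here were 10 named genes matched by symbol among the 24421 genes measured in sorted thymocytes. They were 3 NFAT transcription factors (Nfatc1, Nfatc2, Nfatc3), the 3 catalytic subunits of calcineurin (Ppp3ca, Ppp3cb, Ppp3cc), the membrane calcium channel Orai1 and its store sensor Stim1, the calcium store channel Itpr1 and the calmodulin-dependent kinase Camk4. Each of the 10 had a row, and the filter on low values kept them all.

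T-cell receptor engagement generates inositol trisphosphate, which opens receptors such as Itpr1 in the endoplasmic reticulum and empties its calcium. Stim1 senses the emptied store and opens Orai1 channels in the plasma membrane, and the calcium that enters binds calmodulin. Calcium-loaded calmodulin activates calcineurin, a phosphatase of a catalytic and a regulatory subunit, which dephosphorylates NFAT factors so that they enter the nucleus, and it also activates kinases such as Camk4. In the thymus this pathway is known for its part in positive selection of CD4+CD8+ (DP) cells.

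RNA was sequenced from CD69+CD4+CD8+ (CD69+DP) thymocytes, the DP cells that carry the activation marker CD69 after receptor signalling, sorted from mice aged 6 weeks on a C57BL/6 background. The comparison asked what differs when both forkhead factors Foxa1 and Foxa2 are deleted from T-lineage cells, and held 2 samples per genotype. Foxa1/2cKO mice were Foxa1fl/flFoxa2fl/fl with the CD4Cre transgene, in which Cre is driven by Cd4 regulatory sequence, and controls were littermates with the same floxed alleles and no Cre, so all samples carried both floxed genes and no sample was wild type or Cre alone. The methods state that samples came from separate sorts and different mice and that a sort used 2 mice per genotype, without saying whether these were pooled into 1 library.

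Values were FPKM, the fragments assigned to a gene scaled for its length and for sequencing depth. Levels set beside each other between genes therefore depend on the length used for each gene. The libraries held between 10396462 and 14482116 reads on listed genes. Foxa1 and Foxa2 were listed at 0 in all 4 samples, so they could not check the genotypes; a count of 0 allows up to 3 reads per library. The Foxa1/2cKO samples differed more from each other than the controls did, with a standard deviation of the log2 difference over 10776 tested genes of 0.40 against 0.20. Foxa1/2cKO 2 had the highest summed level of 10 DP marker genes (3571 FPKM against 2825 to 2920 in the others) and the lowest of 6 mature single-positive marker genes (175 against 231 to 263), and their part in the results below was not tested. The sums ranged from 50.3 to 103.5 FPKM for 5 B-cell markers, 10.6 to 21.2 for 6 myeloid markers, 4.89 to 7.61 for 6 thymic epithelial markers and 0.608 to 2.67 for 6 erythroid markers, of which 4 globin genes were at 0, with genotypes overlapping in each. Sums of 8 dissociation stress genes were 150 to 151 in controls and 133 to 135 in Foxa1/2cKO, and their part was likewise not tested. As these were bulk samples, fewer cells of a type and less RNA per cell cannot be told apart.

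Promoter windows of Nfatc3 are shown first, because Nfatc3 was the only one of the 10 genes with an unadjusted p under 0.05, and a window of Nfatc2 is shown because it was the only other one with a forkhead match. The windows are 300 bases around an annotated start, from RefSeq on GRCm38.p6 (mm10), printed 5′ to 3′ in the direction of the gene. Capitals mark matches on either strand to TGTTTAC, a core forkhead motif, or to GGAAA, the core that NFAT proteins bind.

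Nfatc3 upstream window, chr8:106058568-106058867, plus strand: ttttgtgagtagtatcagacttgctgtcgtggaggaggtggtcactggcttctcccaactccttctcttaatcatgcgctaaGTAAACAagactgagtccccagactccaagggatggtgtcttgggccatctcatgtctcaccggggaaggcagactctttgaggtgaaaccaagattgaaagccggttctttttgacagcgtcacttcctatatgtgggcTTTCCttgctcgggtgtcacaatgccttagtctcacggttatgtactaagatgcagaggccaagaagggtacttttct

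Nfatc3 downstream window, chr8:106059340-106059639, plus strand: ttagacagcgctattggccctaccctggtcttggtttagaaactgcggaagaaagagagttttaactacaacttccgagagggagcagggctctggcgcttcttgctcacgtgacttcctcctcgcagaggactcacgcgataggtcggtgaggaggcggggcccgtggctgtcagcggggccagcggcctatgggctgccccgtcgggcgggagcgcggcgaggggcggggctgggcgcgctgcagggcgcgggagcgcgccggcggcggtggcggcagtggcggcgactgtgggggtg

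Nfatc2 upstream window, chr2:168601608-168601907, minus strand: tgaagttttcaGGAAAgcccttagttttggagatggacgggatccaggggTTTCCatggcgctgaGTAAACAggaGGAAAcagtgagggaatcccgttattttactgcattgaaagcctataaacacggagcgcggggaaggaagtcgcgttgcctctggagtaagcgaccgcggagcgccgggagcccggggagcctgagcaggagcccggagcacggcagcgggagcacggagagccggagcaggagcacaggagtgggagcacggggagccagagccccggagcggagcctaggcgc

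RefSeq windows were held for 5 of the 10 genes, as 7 windows. The forkhead letters occurred once in the upstream Nfatc3 window and once in this Nfatc2 window, and in 3.65% of all 32851 promoter windows of the same length. The NFAT core occurred 1 time in the upstream Nfatc3 window, 3 times in this Nfatc2 window, 4 times in the Ppp3cb window and 1 time in a further Nfatc2 window, and in 61.3% of all windows. The downstream Nfatc3 window and the Orai1 and Stim1 windows held neither. A match describes letters only, and no binding was measured in these samples.

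The 10 genes spanned a wide range of levels in CD69+DP cells. By FPKM, Nfatc3 was the most abundant, at 88.1 to 110.2 over the 4 samples. Camk4 followed at a mean of 55.9, Stim1 at 44.1, Nfatc1 at 40.3 and Ppp3cb at 37.9. Orai1 (23.8), Itpr1 (18.9), Nfatc2 (9.45), Ppp3cc (8.78) and Ppp3ca (7.51) were lower. Nfatc3 lay above 94.1% of the tested genes and Ppp3ca above 30.9%. This order rests on the length by which each gene is divided. For Camk4 that length was 12331 bases, against 2717 in its longest transcript in the GENCODE annotation. Camk4 had 9280, 8066, 6701 and 10230 reads in control 1, control 2, Foxa1/2cKO 1 and Foxa1/2cKO 2. Nfatc3 had 7927, 7581, 7153 and 7268 at a length of 6014 bases. Their order may thus differ with another length for Camk4. In the order of levels, the ranges over samples did not overlap between Nfatc3 and Camk4, Ppp3cb and Orai1, Orai1 and Itpr1, or Itpr1 and Nfatc2. The neighbours Camk4, Stim1, Nfatc1 and Ppp3cb overlapped in succession, as did Nfatc2, Ppp3cc and Ppp3ca, although Camk4 exceeded Stim1, Stim1 exceeded Nfatc1 and Ppp3cc exceeded Ppp3ca within each of the 4 samples.

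**Figure D1:**
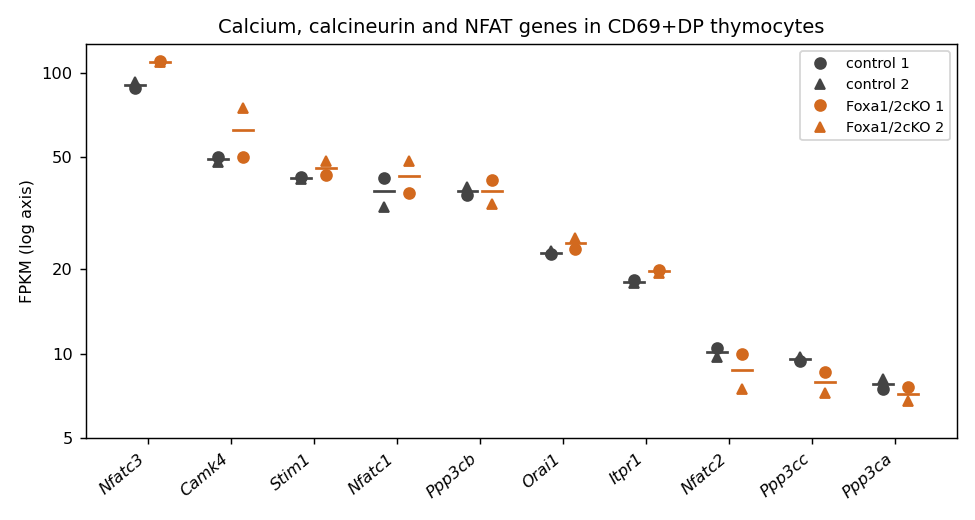
FPKM of each of the 10 genes (log axis) in the 2 control and the 2 Foxa1/2cKO samples, 1 point per sample, with lines at the group means. Nfatc3 sits highest, from 88.1 to 110.2, and Ppp3ca lowest, while neighbours such as Nfatc1 and Ppp3cb overlap.

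No gene among the 10 passed the test between genotypes. By limma on log2(FPKM + 1), 0 of 10 had a Benjamini-Hochberg adjusted p under 0.05, where 1 of 10776 tested genes did (0.00928%). One of the 10, Nfatc3, was higher at an unadjusted p under 0.05, where 2.39% of all genes were, and 0 were lower, where 2.15% were. For 5 of the 10 genes (Nfatc3, Orai1, Stim1, Itpr1, Camk4) the lower Foxa1/2cKO value exceeded the higher control value, which held for 18.9% of all genes, and for 1 (Ppp3cc) both Foxa1/2cKO values were below the controls, which held for 17.8%. The median log2 difference, Foxa1/2cKO minus control, was 0.11 over the 10 genes and 0.01 over all genes. The median of its size was 0.14 against 0.11. The confidence intervals of the 10 differences reached from a fold of 0.655 (Nfatc2) to 1.79 (Camk4). A fit without 1 Foxa1/2cKO sample takes its residual spread from the controls alone, so only the median is given here. It was 0.13 without Foxa1/2cKO 1 and 0.03 without Foxa1/2cKO 2.

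**Figure D2:**
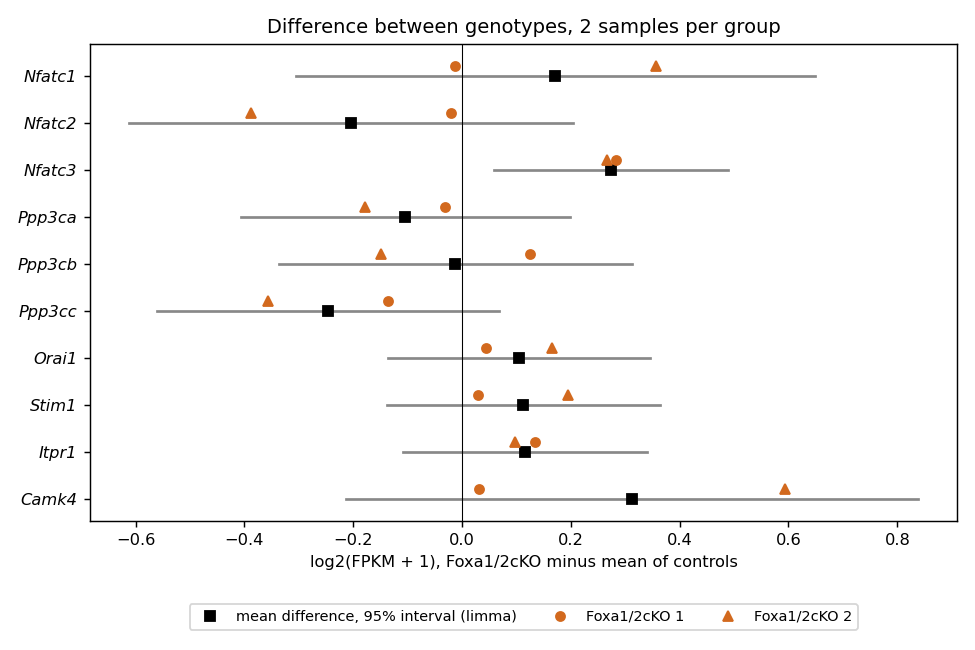
Log2 difference in FPKM + 1, Foxa1/2cKO minus the mean of the controls, for the 10 genes, with squares for the mean, bars for its 95% confidence interval from limma, and a circle and a triangle for the 2 Foxa1/2cKO samples. Only the interval of Nfatc3 (0.06 to 0.49) lies off 0, and in 8 of the 10 genes the triangle of Foxa1/2cKO 2 lies farther from 0 than the circle of Foxa1/2cKO 1.

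Among the NFAT factors, Nfatc3, the most abundant family member in these samples, measured 88.1 and 92.8 FPKM in controls and 110.2 and 108.9 in Foxa1/2cKO. Both Foxa1/2cKO samples were thus above both controls, and within each genotype the samples lay close together (90.5 ± 3.39 and 109.5 ± 0.869, SD, n = 2 each). The ratio of means was 1.21. The log2 difference was 0.27 ± 0.08 (SE), with an unadjusted p of 0.0227 by limma and an adjusted p of 0.863. It stayed between 0.24 and 0.31 when any 1 sample was left out. Such fits leave a lone sample in a group, so no p is given for them. With the replicate number as a block, the unadjusted p of Nfatc3 by limma was above 0.05. These levels rest on 7153 to 7927 reads per library. Nfatc3 (GRCm38.p6, chr8:106058818-106130537, plus strand) shares 219 exon bases at its 3′ end with Esrp2 on the opposite strand. Whether gene counting used strand is not given in the sources used here, and reads there cannot be assigned to one of the pair with certainty. Orai1, Ppp3cc, Itpr1 and Camk4 share 7 to 181 exon bases with opposite-strand genes not used here. Esrp2, a splicing regulator of epithelial cells, was listed at 2.53, 2.92, 2.81 and 5.23 FPKM in control 1, control 2, Foxa1/2cKO 1 and Foxa1/2cKO 2.

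Nfatc1, an NFAT factor with a role in early thymocytes and effector T cells, measured 42.4 and 33.3 FPKM in controls and 37.2 and 48.4 in Foxa1/2cKO. The genotypes overlapped, with the lowest value in control 2 and the highest in Foxa1/2cKO 2. Its log2 difference of 0.17 ± 0.18 (limma adjusted p = 0.872) became -0.01 without Foxa1/2cKO 2. Nfatc2 (chr2:168476410-168601657, minus strand), the NFAT factor long studied in mature T cells, measured 10.5 and 9.78 FPKM in controls and 9.99 and 7.52 in Foxa1/2cKO. Only Foxa1/2cKO 2 was below both controls, and the log2 difference of -0.20 ± 0.16 (limma adjusted p = 0.863) was -0.02 without that sample. Without Foxa1/2cKO 1 it was -0.39.

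Calcineurin acts through 1 of 3 catalytic subunits, of which Ppp3cb was the most abundant here, with Ppp3ca, the main form in brain, and Ppp3cc lower. Ppp3cb (chr14:20499364-20546573, minus strand) measured 36.7 and 39.3 FPKM in controls and 41.5 and 34.1 in Foxa1/2cKO. The Foxa1/2cKO samples lay on either side of the controls, the log2 difference was -0.01 ± 0.12 (limma adjusted p = 0.989), and its sign turned to 0.13 without Foxa1/2cKO 2 and to 0.04 without control 2. Ppp3ca (chr3:136669714-136937727, plus strand) measured 7.47 and 8.16 FPKM in controls and 7.63 and 6.79 in Foxa1/2cKO, with overlapping genotypes and a log2 difference of -0.10 ± 0.12 (limma adjusted p = 0.872). Ppp3cc (chr14:70217864-70289536, minus strand) measured 9.42 and 9.78 FPKM in controls and 8.65 and 7.28 in Foxa1/2cKO. It was the only one of the 10 genes with both Foxa1/2cKO samples below both controls, although it was also one of the least sampled, with 166 to 290 reads per library. Its log2 difference was -0.25 ± 0.12, with an interval of -0.56 to 0.07 and a limma adjusted p of 0.863. Without Foxa1/2cKO 1 it was -0.36.

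None of the calcium entry and release genes passed the test of gene levels. The authors name Orai1 among genes with 1 differentially used exon, which FPKM per gene cannot show. Orai1 (chr5:123015074-123030452, plus strand), the pore of the store-operated channel, measured 22.6 and 23.2 FPKM in controls and 23.6 and 25.8 in Foxa1/2cKO. Stim1 (chr7:102261514-102437319, plus strand), the sensor of the endoplasmic reticulum, measured 42.6 and 42.1 in controls and 43.2 and 48.6 in Foxa1/2cKO. For both genes Foxa1/2cKO 1 exceeded the higher control by less than 1 FPKM, and Foxa1/2cKO 2 stood above the other 3 samples. The log2 differences were 0.10 ± 0.09 for Orai1 and 0.11 ± 0.10 for Stim1, each with a limma adjusted p of 0.864, and they were 0.04 and 0.03 without Foxa1/2cKO 2. The ratio of Stim1 to Orai1 FPKM was 1.89 and 1.81 in controls and 1.83 and 1.89 in Foxa1/2cKO, with overlapping genotypes. Itpr1 (chr6:108213083-108551116, plus strand), a receptor that releases calcium from the store, measured 18.3 and 17.8 FPKM in controls and 19.9 and 19.4 in Foxa1/2cKO. Neither Foxa1/2cKO value overlapped the controls, and the replicates lay close together, with a log2 difference of 0.12 ± 0.09 (limma adjusted p = 0.863). The difference stayed between 0.10 and 0.14 with any 1 sample left out, but it was 0.06 with a correction for gene length.

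Camk4, a nuclear kinase that calmodulin switches on and that phosphorylates CREB, measured 50.3 and 48.2 FPKM in controls and 50.3 and 74.8 in Foxa1/2cKO. The value of Foxa1/2cKO 1 was almost that of control 1, so the separation of the genotypes rests on Foxa1/2cKO 2 alone. The log2 difference was the largest in size of the 10, at 0.31 ± 0.20 (limma adjusted p = 0.863). Without Foxa1/2cKO 2 it was 0.03, and without Foxa1/2cKO 1 it was 0.59. Foxa1/2cKO 2 was the sample farthest from the mean of the other 3 in 8 of the 10 genes (80%) and in 52.1% of all tested genes.

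Related genes were also compared as shares of their family within each sample, which removes any difference in scaling between libraries. Nfatc3 held 58.3 ± 3.39% of the summed FPKM of Nfatc1 to Nfatc4 and Nfat5 in controls and 60.8 ± 2.86% in Foxa1/2cKO (SD, n = 2; exact permutation p = 0.667). Nfatc1 held 24.3 ± 3.64% and 23.7 ± 3.46%, and Nfatc4 had 1 read in 1 sample. The share of Nfatc2 was 6.68% and 6.39% in controls and 5.70% and 4.06% in Foxa1/2cKO, lower in both Foxa1/2cKO samples (exact permutation p = 0.333). As shares of family reads these were 7.63% (95% Wilson interval 7.24 to 8.03) and 7.33% (6.92 to 7.75) against 6.62% (6.21 to 7.05) and 4.65% (4.33 to 5.003). The intervals, which cover counting error only, do not overlap between Foxa1/2cKO 2 and the other 3 samples, whereas those of Foxa1/2cKO 1 and control 2 do.

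Within calcineurin, the balance of catalytic subunits separated the genotypes with little spread. Ppp3cc held 17.6% and 17.1% of the summed catalytic FPKM in controls and 14.97% and 15.1% in Foxa1/2cKO, a difference of -2.30 percentage points. Ppp3cb held 68.5% and 68.7% in controls and 71.8% and 70.8% in Foxa1/2cKO, and Ppp3ca 14.1 ± 0.214% and 13.6 ± 0.625%. The ratio of Ppp3cb to Ppp3cc was therefore 3.89 and 4.02 in controls against 4.80 and 4.69 in Foxa1/2cKO. The spread between replicates was smaller than the gap between genotypes, but the exact permutation p was 0.333, the smallest the design allows, for both shares and for this ratio. At this depth the 95% Wilson intervals of the Ppp3cc share of family reads overlapped, at 9.79% (8.77 to 10.9) and 9.47% (8.46 to 10.6) in controls and 8.24% (7.19 to 9.43) and 8.30% (7.17 to 9.59) in Foxa1/2cKO.

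For the channels, Orai1 held 31.8 ± 0.700% of the summed ORAI FPKM in controls and 30.8 ± 2.17% in Foxa1/2cKO (exact permutation p = 1), less than its paralogue Orai2 at 63.1 ± 0.755% and 64.8 ± 3.96%. Stim1 held 72.1 ± 0.622% and 73.7 ± 1.38% of the STIM sum, and Itpr1 23.3 ± 0.0357% and 24.2 ± 1.06% of the sum of the 3 inositol trisphosphate receptors (exact permutation p = 0.333 each). Itpr2 held 40.3% and 40.1% in controls and 41.1% and 41.2% in Foxa1/2cKO, and Itpr3 36.4% and 36.7% against 35.4% and 33.8%, so neither overlapped between genotypes (exact permutation p = 0.333 each). Thus Orai1 and Itpr1 were not the leading paralogues by FPKM, while Nfatc3, Ppp3cb and Stim1 were.

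**Figure D3:**
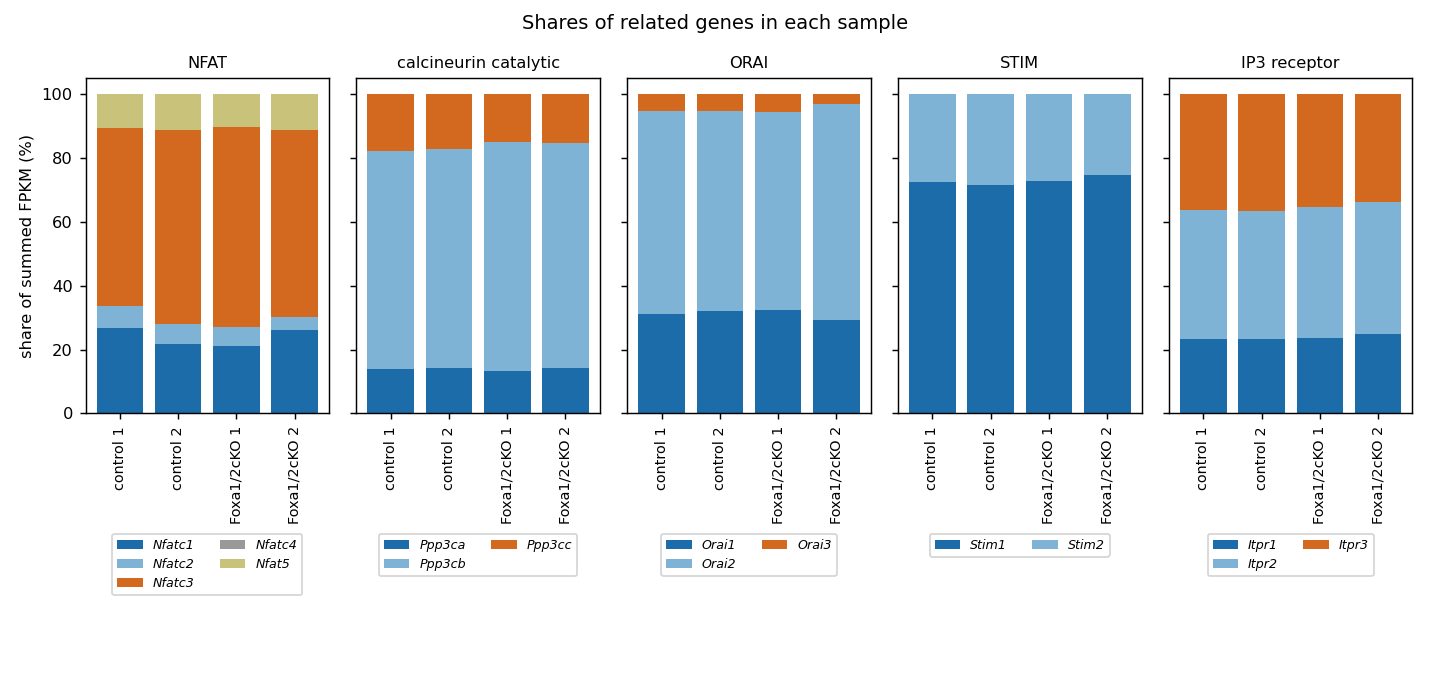
Share of each paralogue in the summed FPKM of its family (percent, stacked bars that start at 0) in each of the 4 samples. Ppp3cc takes 17.6% and 17.1% in controls and 14.97% and 15.1% in Foxa1/2cKO, and in the STIM and IP3 receptor bars the genotypes are also apart, with Itpr3 at 36.4% and 36.7% against 35.4% and 33.8%, while the ORAI bars overlap.

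The other genes of the pathway were read from a list of 51, of which 39 passed the filter on low values. None had an adjusted p under 0.05 by limma, 1 was lower and 0 were higher at an unadjusted p under 0.05, beside 2.15% and 2.39% of all genes, and their median log2 difference was 0.02. Foxa1/2cKO values lay wholly above the controls for 7 of the 39 (17.9%) and wholly below them for 4 (10.3%), beside 18.9% and 17.8% of all genes. The gene that was lower was Camk1g, a calmodulin-dependent kinase at a low level, with 44 and 45 reads in controls and 6 and 14 in Foxa1/2cKO. Its FPKM was 1.20 and 1.35 against 0.227 and 0.514, a log2 difference of -0.74 ± 0.22 on the log2(FPKM + 1) scale, with an unadjusted p of 0.0210 and an adjusted p of 0.863 by limma. Only its 2 control values reached the FPKM of 1 that the filter asked for. The filter thus kept Camk1g through the group where it was higher, and its p gives no support for a difference. The log2 difference lay between -0.89 and -0.59 with any 1 sample left out, which is no separate support.

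In each role the most abundant other gene gave the following levels. Ppp3r1, the regulatory subunit that calcineurin needs, measured 51.8 and 52.8 FPKM in controls and 53.9 and 55.6 in Foxa1/2cKO. The calmodulin gene Calm2 measured 167 and 168 against 172 and 162. Their log2 differences were 0.07 and -0.01, with Ppp3r1 slightly higher in both Foxa1/2cKO samples and Calm2 overlapping between genotypes. Saraf, an inhibitor of store-operated entry, measured 154.5 and 153.9 FPKM against 164 and 207, Tespa1, a partner of the inositol trisphosphate receptor, 103 and 98.5 against 91.4 and 140.5, and the calcium pump Atp2a3 190.5 and 183 against 188 and 230.0. In these 3 genes Foxa1/2cKO 2 was the highest sample and Foxa1/2cKO 1 lay closer to the controls. The calcineurin inhibitor Cabin1 (39.2 and 35.4 against 37.8 and 42.4 FPKM), the kinase Camk2g (24.7 and 24.5 against 23.8 and 25.4), the NFAT kinase Csnk1a1 (183 and 174 against 184 and 189.6) and the tonicity-responsive factor Nfat5 (16.5 and 17.0 against 17.9 and 20.4) had log2 differences from 0.00 for Camk2g to 0.18 for Nfat5.

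**Figure D4:**
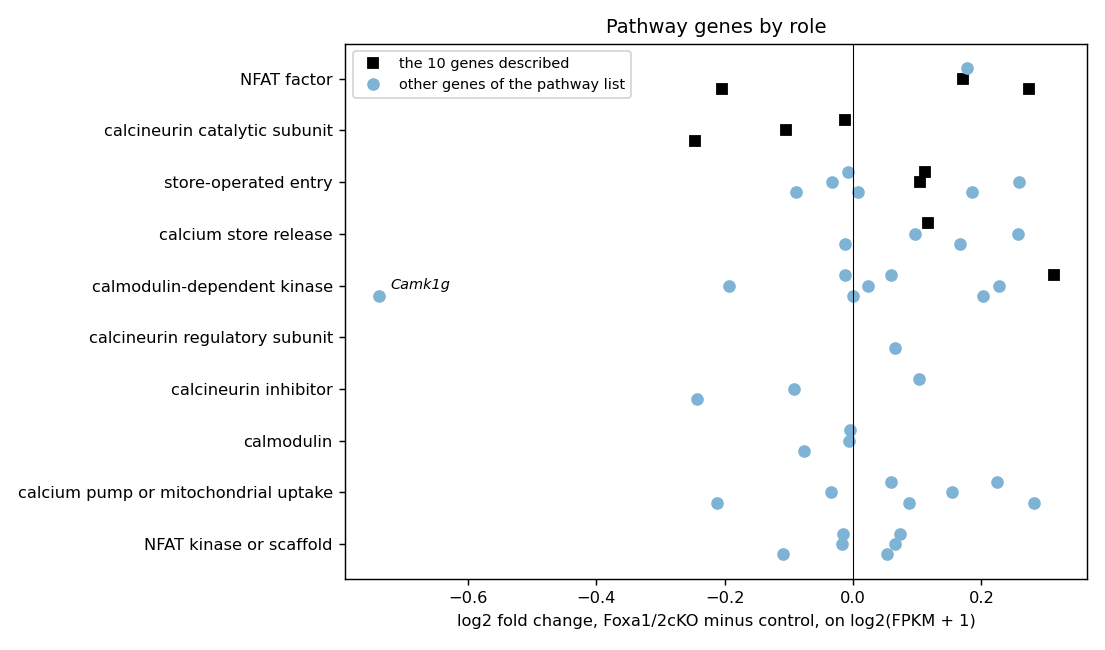
Log2 difference, Foxa1/2cKO minus control, in log2(FPKM + 1) for each tested gene of the pathway by role, with the 10 genes and the 39 others marked. All points but Camk1g at -0.74 lie between -0.25 and 0.31.

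A list of 8 genes that respond to calcineurin and NFAT was read as a description of output at the RNA level. It held Cd69, the marker on which all samples were sorted, and Rcan1, which is also on the list of other pathway genes. None passed the test, 0 were at an unadjusted p under 0.05, and the median log2 difference was 0.08. Both Foxa1/2cKO samples were below both controls for 1 of the 8, Egr3 (12.5%, beside 17.8% of all genes), and above for 0, beside 18.9%. The most abundant, Cd5, an attenuator of receptor signalling, measured 484 and 423 FPKM in controls and 402 and 732 in Foxa1/2cKO. Foxa1/2cKO 1 was the lowest of the 4 samples and Foxa1/2cKO 2 the highest, and the log2 difference of 0.26 ± 0.30 (limma adjusted p = 0.881) became -0.17 without Foxa1/2cKO 2.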

How the data were processed

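RNA of CD69+CD4+CD8+ thymocytes was sequenced in 2 control and 2 Foxa1/2cKO samples. Per the methods and the labels, the authors aligned reads to mm10 in BaseSpace, counted them on RefSeq genes with HTSeq and tested them with DESeq2. They then re-estimated the p-values from its z-scores with fdrtool, so their calls are not those of the test used here. The authors called many more genes at an adjusted p under 0.05 than the test here did. A gene that did not pass here is therefore not shown to be unchanged. They also tested exon usage with DEXSeq, which was not repeated here. TopHat and Picard are also named in the submitters' processing notes. The deposited values are FPKM per gene, and the step from counts to FPKM is not given in the sources used here.

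All 16069 genes above 0 gave whole reads in all samples (100%, within 0.001 reads), which holds by construction for a gene above 0 in 1 sample. Of genes over 50 reads, 96.2% gave a whole length directly and 3.82% after a multiplier. The divisor of the FPKM followed the median-of-ratios size factor of each library. The totals of recovered reads were 14482116 and 13070722 in controls and 10396462 and 11261898 in Foxa1/2cKO, and the controls differed from each other by more than sampling noise (chi-square per degree of freedom 3.30). Genes that reached an FPKM of 1 in 2 or more samples (10776) were tested on log2(FPKM + 1) with limma 3.58.1 in R 4.3.3, with a mean-variance trend, genotype as the only term and Benjamini-Hochberg adjustment. Fold changes on this scale understate the change of low genes. Shares were compared with a two-sided exact permutation test over samples (SciPy 1.17.1). With 2 samples per group its smallest p is 0.333. The methods give different mice per sample and 2 mice per genotype in a sort, but not whether a library pooled mice. The limma p-values set the difference between genotypes against the spread between these samples. That spread is moderated by the other genes, with 2 residual and 2.69 prior degrees of freedom.

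The 10 genes, the pathway, response and marker lists, and the tests were chosen with earlier results of these data known, so they give no independent support. Named were all 10 genes, the listed genes with an unadjusted p under 0.05, in each role the gene with the highest mean FPKM, and Foxa1 and Foxa2. Esrp2, Egr3, Orai2, Itpr2, Itpr3 and Nfatc4 were named after their values were seen, and Cd69 and Rcan1 for their place in the lists. Nr4a1 was named because the paper measured its protein. Gene positions and promoter windows came from RefSeq and exon overlaps from GENCODE vM21, on GRCm38.p6. Alternatives were other pseudocounts, filters and scalings, a replicate term, a correction for gene length, limma-voom on recovered reads, and leaving out each sample.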

Additional observations from a re-analysis of the deposited data

How the results depend on the processing

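Of 130 alternative values of the 10 log2 differences, 3 changed sign: Nfatc1 to -0.014 without Foxa1/2cKO 2 (up to 0.36 with another sample left out), and Ppp3cb to 0.037 without control 2 and to 0.13 without Foxa1/2cKO 2 (down to -0.15). The other 8 genes kept their direction in all 13 alternatives. In the 9 alternatives that kept all samples, 0 of the 10 genes and 0 of the 39 others had an adjusted p under 0.05 by limma. With 1 sample left out, which leaves a lone sample assumed to vary like the other group, the number was 0 to 4 of the 10 and 0 to 10 of the others, the highest without Foxa1/2cKO 1, where 2559 of all genes were called. Between 0 and 6 of the 10 and between 0 and 15 of the others had an unadjusted p under 0.05. The highest of these counts came from the fit without Foxa1/2cKO 1, which takes its residual spread from the controls alone. They thus give no support for a difference in these genes. With all samples kept, both Foxa1/2cKO values lay below both controls for 1 or 2 of the 10 and above both for 4 or 5. In the main setting this held for 17.8% and 18.9% of all genes. Groups come apart more easily with fewer samples, so such counts are not given for fits that left 1 out. The median over the 10 ranged from 0.031 to 0.13. At an unadjusted p under 0.05, 3 other pathway genes were found with no filter and 2 with limma-voom. Of all genes, 802 of 16069 were found with no filter and 519 of 10776 with limma-voom. Of the 10 genes, 8 are longer than the median tested gene. The correction for gene length gave 2 genes below both controls and 4 above both, alone and with the replicate block. Shares over all genes with this correction are not given here. With it the median was 0.09 over the 10 and 0.02 over all genes, and the log2 difference of Itpr1 was 0.06. The share of Nfatc1 (-0.666 percentage points) ranged from -3.24 to 1.90 with a sample left out (1.78 without Foxa1/2cKO 1), and that of Orai1 (-0.923) from -2.46 to 0.615, the latter without Foxa1/2cKO 2. With a sample left out, the share differences of Nfatc3 (2.53) ranged from 0.129 to 4.93, Nfatc2 (-1.66) from -2.48 to -0.837, Ppp3ca (-0.461) from -0.903 to -0.0187, Stim1 (1.67) from 0.698 to 2.65 and Itpr1 (0.953) from 0.202 to 1.70, whereas those of Ppp3cb and Ppp3cc moved by under 1.5 times. The causes were not tested.

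With the replicate number as a block, 0 of the 10 genes had an unadjusted p under 0.05, with or without the correction for gene length, against 1 without the block, and 0 had an adjusted p under 0.05 by limma. Same-numbered samples did not deviate together (r across genes -0.06), and nothing states that a number marks a shared batch. This correlation rests on a single difference between samples per genotype, so it cannot show whether same-numbered samples shared a sort or litter. Of the 10 genes, Ppp3cc had the fewest reads, 166 to 290 per library, and the other pathway gene Camk1g had 6 to 45.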
